A study of Mus musculus with 6 samples.

Results

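CD45, encoded by *Ptprc*, was examined together with 6 further receptor-type protein tyrosine phosphatase genes and with *Ptprcap*, the gene of a CD45-associated protein, in hematopoietic stem cells with and without the lymphotoxin-β receptor. The 8 genes (*Ptprc*, *Ptprcap*, *Ptprv*, *Ptprj*, *Ptpre*, *Ptpra*, *Ptprs* and *Ptprk*) were taken by symbol from the 26216 gene names in the data. They were chosen by the log2 difference between the genotypes as well as by family: that difference was already known, in it *Ptprv* was among the genes lower in *Ltbr*-/- than in Ly5.1 cells, and *Ptprv* lies near *Ptprc*, whose alleles tell the donors apart. The members' differences between the genotypes are therefore given as a description, without a test.

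RNA-seq was performed on LT/ST-HSCs (long-term and short-term hematopoietic stem cells: live Lin- cells positive for c-kit, sca1 and CD150 and negative for CD48) purified from bone marrow of mixed chimeras at week 6 after transplantation, with 3 samples per genotype. *Ltbr*-/- cells carried the CD45.2 form of CD45 and came from homozygous *Ltbr* mutants, whereas control cells came from Ly5.1 mice, which carry CD45.1. LSKs (Lin- sca1+ c-kit+ cells) of both donors had been injected together, in equal numbers, into Ly5.1/Ly5.2 hosts given a lethal dose of radiation. The genotypes thus shared hosts, and every sample came from irradiated mice. The 3 replicates of a genotype are pools from 6 chimeras. Donors were 13, 10 and 10 to 13 weeks old for *Ltbr*-/- replicates 1, 2 and 3 and 7 to 13 weeks old for all Ly5.1 samples. Because the CD45 allele marks the donor, the *Ltbr* genotype and whatever else travels with the CD45.1 or CD45.2 chromosome segment cannot be told apart here, and the p-values below measure only the spread between these pooled samples.

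Protein tyrosine phosphatases remove phosphate from tyrosine residues through a catalytic cysteine that sits in a short signature (histidine, cysteine, 2 variable residues, glycine, 2 variable residues, arginine). Receptor-type members span the membrane and mostly carry a pair of cytoplasmic phosphatase domains, of which the one next to the membrane does most of the catalysis. CD45 is abundant on nearly all nucleated blood cells, where it is best known for removing the inhibitory phosphate from Src-family kinases and so setting the threshold of antigen receptor signalling in lymphocytes.

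The stretch that encodes the signature is shown first, because it is what makes these genes a family and because *Ptprcap* lacks it. It was searched in the coding sequence of the longest coding transcript of each gene, and for *Ptprv*, which has no coding transcript in the annotation, in an open frame of 743 codons of its longest transcript. Of the 8 genes 7 held it, in 11 places: once in *Ptprc*, *Ptprv* and *Ptprj*, and at 2 positions each in *Ptpre*, *Ptpra*, *Ptprs* and *Ptprk*. *Ptprcap* held none, and its product is not a phosphatase. Each sequence is the sense strand of GRCm38 transcripts, 24 bases for 8 codons, with the codon of the signature's cysteine in capitals:
Ptprc: cacTGCagtgctggtgttgggcgt
Ptprv: catTGCagtgcgggtgtgggcagg
Ptprj: catTGCagtgctggggttggaagg
Ptpre, first: cacTGTagcgcgggcgtgggtcgg
Ptpre, second: cacTGCagcgcgggagcagggcgg
Ptpra, first: cacTGCagtgcaggtgtagggcgc
Ptpra, second: cacTGCagtgccggggcaggacgg
Ptprs, first: cacTGCagcgcgggtgtggggcgc
Ptprs, second: cacTGCagcgccggagtgggcagg
Ptprk, first: cacTGCagtgctggtgctgggcgc
Ptprk, second: cacTGCttgaatggcggtgggcgc
Every one of the 11 stretches is split by an intron at the same place, after base 8 of 24, which is within the codon that follows the cysteine. In *Ptprc* the stretch runs from the end of exon 24 of 33 into the next exon, at chr1:138080255-138080844 on the minus strand of GRCm38. In *Ptprv* it runs from exon 27 of 37, at chr1:135111166-135111309 on the minus strand. Between first stretches, *Ptprc* and *Ptprk* were the most alike of the pairs with *Ptprc*, with 22 of 24 bases identical, and *Ptprc* and *Ptpre* the least, with 17 of 24.

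The targeted gene was checked first. *Ltbr* had values of 24.2, 26.4 and 23.1 in *Ltbr*-/- and 564, 549 and 522 in Ly5.1 samples, a log2 difference of -4.47, so each library bore out its label. All values are the authors' regularized log expression values, deposited on a linear scale; the files hold no read counts, so the depth behind a single value is unknown. Correlations between the samples' log2 values over all tested genes were 0.997 to 0.998 within a genotype and 0.992 to 0.996 between genotypes. Of the 13108 tested names (the upper 50% by mean log2 value), 1388 were called higher and 548 lower in *Ltbr*-/- at an adjusted p under 0.05 (limma), and under quantile normalization 1246 were called higher and 914 lower. Among the genes of the sort gate, *Kit* and *Slamf1* were expressed and did not pass the test, and the same held for the further stem cell markers *Procr*, *Mecom*, *Hlf* and *Fgd5*. For *Kit* and *Slamf1* each *Ltbr*-/- sample nevertheless lay below each Ly5.1 sample, at log2 differences of -0.15 and -0.18. That pattern was shown by 13.5% of all tested genes. *Ly6a*, which encodes sca1, was lower in *Ltbr*-/- cells, and *Cd48*, a marker against which cells were sorted, had values of 20.1 to 28.9 in the 6 samples.

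Apart from *Ptprv*, the differences of the members were small. Of the 8 members, 7 passed the filter on low values, and *Ptprk* did not. All 7 had a lower mean log2 value in *Ltbr*-/- cells, where 53.6% of all tested genes did, and in 5 of the 7 each *Ltbr*-/- sample lay below each Ly5.1 sample, a pattern that 13.5% of all tested genes showed. Their median log2 difference was -0.13, beside -0.011 over all tested genes. As the members were chosen with this contrast known, nothing is read from these counts. In bulk samples, fewer cells that express a gene and less RNA of it per cell cannot be told apart.

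**Figure D1:**
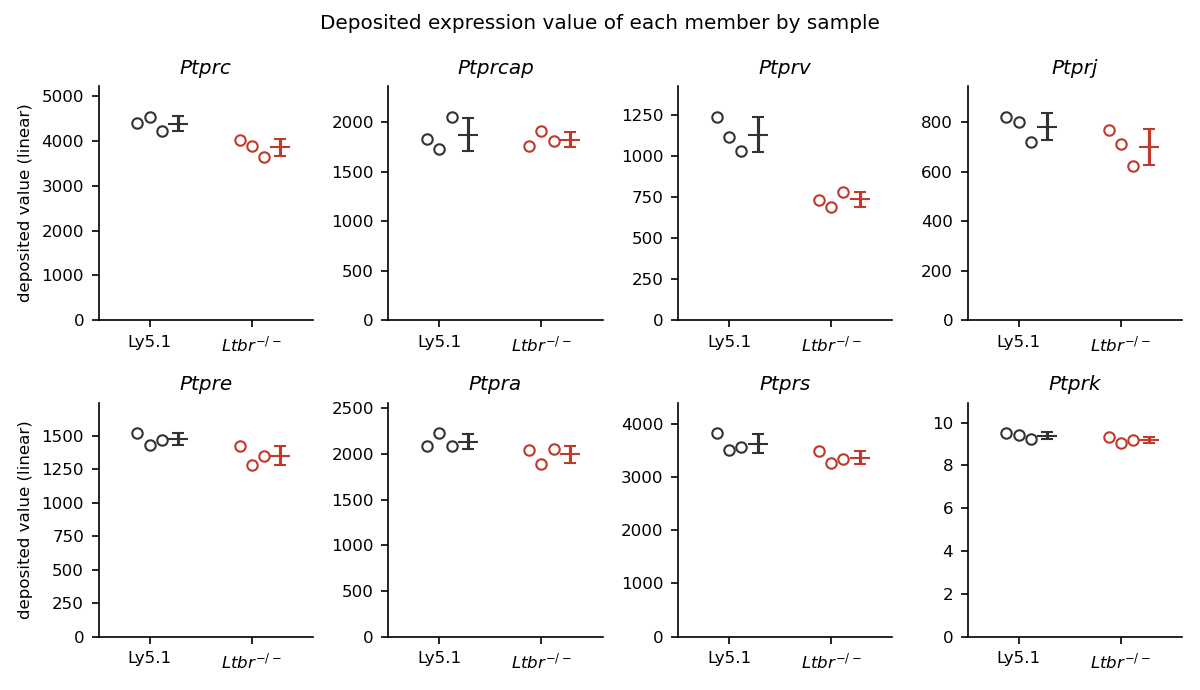
Deposited expression value (linear, axis from 0) of the 8 members in each sample, with open circles for samples and a dash with error bars for the mean ± SD (n = 3 per genotype; Ly5.1 grey, *Ltbr*-/- red). The genotypes are set furthest apart for *Ptprv*, at 689 to 781 against 1031 to 1239, whereas the samples of *Ptprcap*, *Ptprj* and *Ptprk* overlap.

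*Ptprc* lies at chr1:138062861-138175708 on the minus strand (GRCm38) and has 13 annotated transcripts, 5 of them coding. Its values were 4025, 3896 and 3651 in *Ltbr*-/- and 4391, 4544 and 4225 in Ly5.1 samples. The genotypes did not overlap, with *Ltbr*-/- replicate 3 the lowest and Ly5.1 replicate 2 the highest. The means were 3857 ± 190 and 4387 ± 159 (SD, n = 3), a log2 difference of -0.19 (limma SE 0.07), or -12.1% in *Ltbr*-/- relative to Ly5.1 cells. Under quantile normalization the difference was -0.31, more than 1.5 times as far from 0, while leaving out each sample in turn gave -0.22 to -0.15. Among all gene names *Ptprc* stood at percentile 98.3 of the mean log2 value, which is not corrected for length.

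*Ptprcap*, on chromosome 19 (chr19:4153604-4156751, plus strand), encodes the small transmembrane protein that binds CD45 in lymphocytes. Its values were 1758, 1906 and 1805 in *Ltbr*-/- and 1831, 1732 and 2056 in Ly5.1 samples. The genotypes overlapped, as the lowest and the highest value were both from Ly5.1 samples. The log2 difference was -0.04 (SE 0.08), and it turned to 0.03 without Ly5.1 replicate 3, whose value was the highest. The annotated transcript used for the length, of 1082 bases, shares 35.5% of its 76-base stretches with *Coro1b*, which overlaps it on the same strand, whereas the other coding transcript, of 927 bases, shares 0%. *Coro1b*, the gene of an actin-binding coronin, was higher in *Ltbr*-/- cells (log2 fold change 0.33, SE 0.07, adjusted p = 0.001, limma), and its part in the *Ptprcap* values was not tested.

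*Ptprv* (chr1:135108497-135132594, minus strand), known also as *Esp* or OST-PTP, is best known from osteoblasts, embryonic stem cells and Sertoli cells. GENCODE gives it 11 transcripts and no coding one, and RefSeq lists it as a transcribed pseudogene. Its values were 733, 689 and 781 in *Ltbr*-/- and 1239, 1117 and 1031 in Ly5.1 samples. The 3 *Ltbr*-/- values lay close together and well under the lowest Ly5.1 value, and the Ly5.1 samples were spread more widely. The means were 735 ± 46.2 and 1129 ± 105 (SD, n = 3), a log2 difference of -0.62 (SE 0.09), and leaving out any single sample gave -0.68 to -0.55. The geometric mean in *Ltbr*-/- cells differed from that in Ly5.1 cells by -34.8%, against -12.1% for *Ptprc*, the next largest of the 8.

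*Ptprj* encodes CD148, a receptor phosphatase with a single phosphatase domain that acts on Src-family kinases beside CD45 in B cells and macrophages (chr2:90429754-90580647, minus strand). Its values were 766, 710 and 621 in *Ltbr*-/- and 822, 802 and 719 in Ly5.1 samples. *Ltbr*-/- replicate 1 lay above Ly5.1 replicate 3, so that the genotypes overlapped, and the log2 difference was -0.16 (SE 0.09). Leaving out each sample moved it between -0.23 and -0.08, the latter without *Ltbr*-/- replicate 3. Of its 76-base stretches, 3.61% also occur in other annotated genes with Gm symbols.

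*Ptpre* and *Ptpra* encode PTPε and PTPα, a closely related pair with short extracellular parts that activate Src-family kinases. *Ptpre* (chr7:135537481-135686293, plus strand) had values of 1423, 1284 and 1346 in *Ltbr*-/- and 1521, 1433 and 1470 in Ly5.1 samples. The genotypes did not overlap, but *Ltbr*-/- replicate 1 lay just under Ly5.1 replicate 2, and the log2 difference was -0.13 (SE 0.08). *Ptpra* (chr2:130450278-130556124, plus strand) had values of 2038, 1886 and 2056 in *Ltbr*-/- and 2081, 2226 and 2088 in Ly5.1 samples. Here too the genotypes just failed to overlap, with a log2 difference of -0.10 (SE 0.08). It was -0.06 without *Ltbr*-/- replicate 2 and -0.15 under quantile normalization.

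*Ptprs* encodes PTPσ, a receptor for heparan and chondroitin sulfate proteoglycans (chr17:56412426-56476483, minus strand). Its values were 3494, 3263 and 3335 in *Ltbr*-/- and 3827, 3506 and 3558 in Ly5.1 samples. The highest *Ltbr*-/- value lay just under the lowest Ly5.1 value, and the log2 difference was -0.11 (SE 0.08), or -0.21 under quantile normalization and -0.07 without Ly5.1 replicate 1. *Ptprk*, the gene of the homophilic adhesion phosphatase PTPκ (chr10:28074820-28597397, plus strand), had values of 9.34, 9.05 and 9.17 in *Ltbr*-/- and 9.51, 9.43 and 9.21 in Ly5.1 samples. They overlapped, with a log2 difference of -0.03 at a mean that stood at percentile 47.8 of all names.

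Levels of the members were compared with each other per kb of the longest transcript. On that scale the mean over the 6 samples ran from 1708 for *Ptprcap* (range 1600 to 1900) through 812 for *Ptprc* (720 to 895), 510 for *Ptprs* (476 to 558), 387 for *Ptpra* (354 to 418), 246 for *Ptpre* (223 to 264), 153 for *Ptprv* (113 to 203) and 96.9 for *Ptprj* (81.4 to 107.7) to 1.5 for *Ptprk* (1.47 to 1.54). No ranges of neighbours in this order overlapped. The order was the same in each genotype's mean. It depends on the length used: with the median transcript length in place of the longest, 6 of the 8 ranks moved and *Ptprs* came first, with *Ptprv*, whose median transcript of 375 bases is a short non-coding one, next. The regularized log scale also pulls low values towards the mean of a gene, so the spread of *Ptprk* is not comparable with that of the others.

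**Figure D2:**
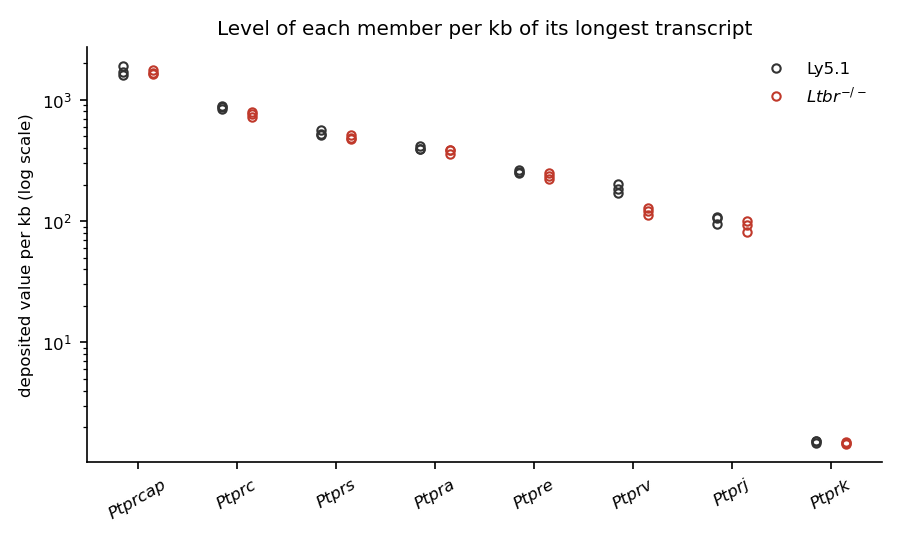
Deposited value per kb of the longest transcript (log scale) of each member, in order of the mean over the 6 samples, with an open circle for each sample (Ly5.1 grey, *Ltbr*-/- red). *Ptprcap* and *Ptprc* stand highest, at 1708 and 812, and *Ptprk* lies at 1.5, far under the other 7.

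Over the 6 samples, the log2 values of the members moved together to different degrees. The highest Pearson correlation between a pair of members was 0.96, for *Ptpre* with *Ptprs*, and *Ptprc* correlated with *Ptprj* at 0.89 and with *Ptprv* at 0.83. *Ptprcap* stood apart, with -0.35 to 0.04 with the other 6 tested members. These are descriptions over 6 points that include the genotype difference. Among all tested genes, those most like *Ptprc* were *Rabl2* (0.995), *Iqgap2* (0.994) and *Zxdb* (0.994), and those most like *Ptprv* were *Polr3d* (0.992), *Dusp1* (0.992) and *Sgcb* (0.99). With so few samples such values are common: 115 of 13107 genes had a correlation above 0.95 with *Ptprc*, and 120 with *Ptprv*.

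*Ptprv* shares its start with *Ptpn7*, the gene of a cytosolic tyrosine phosphatase of blood cells that inactivates the MAP kinases ERK and p38. The genes point away from each other, *Ptpn7* on the plus strand at chr1:135132700-135145317, with 105 bases between their GENCODE starts, while their RefSeq models overlap by 738 bases on opposite strands. The stretch between the starts, chr1:135132595-135132699 on the plus strand of GRCm38, is given with its CpG dinucleotides in capitals, because both annotated transcripts begin at its ends:
Ptprv-Ptpn7 start: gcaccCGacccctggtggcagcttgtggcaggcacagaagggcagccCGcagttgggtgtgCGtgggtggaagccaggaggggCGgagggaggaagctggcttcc
It has a GC content of 69.5% and 4 CpG dinucleotides, where windows of the same length just before RefSeq gene starts had a median GC content of 54.3% and a median of 3 CpG, and 44.8% of 32815 windows had at least as many. *Ptpn7* carries the signature at chr1:135139271-135141958 on the plus strand, from exon 8 of 10, with the intron at the same place as in the members:
Ptpn7: cacTGCagtgcagggatcggccgg
*Ptpn7* is not a member, so its difference was tested. It had values of 1609, 1515 and 1285 in *Ltbr*-/- and 1800, 1914 and 1983 in Ly5.1 samples. All 3 *Ltbr*-/- samples were below all Ly5.1 samples, with replicate 3 the lowest. *Ptpn7* was lower in *Ltbr*-/- cells, with a log2 fold change of -0.37 (SE 0.09, adjusted p = 0.0022, limma). The call rested on *Ltbr*-/- replicate 3, without which the log2 fold change was -0.28 and the adjusted p 0.0545. The antisense gene *Gm10535*, within the far end of *Ptprv*, had a mean of 65.9 ± 3.27 in *Ltbr*-/- and 69.3 ± 2.68 in Ly5.1 samples (SD, n = 3) and passed no test (adjusted p = 0.541, limma). Whether the counting used the strand is not given in the sources used here, so reads of *Ptprv* and of *Gm10535*, or of the overlapping starts of *Ptprv* and *Ptpn7*, may not have been kept apart.

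**Figure D3:**
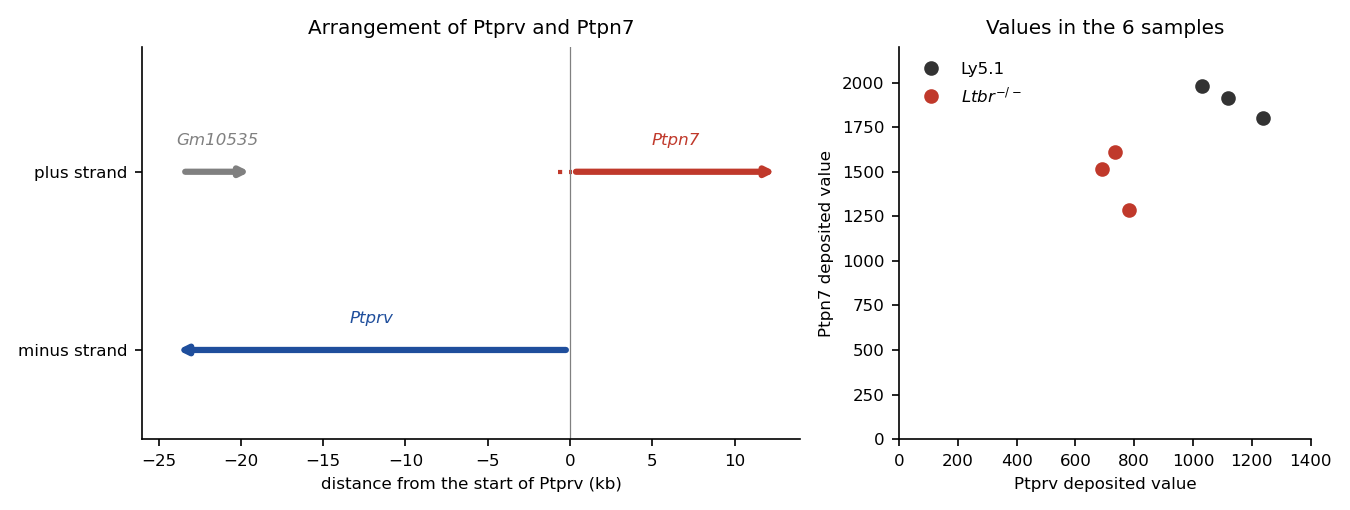
Left, arrangement of *Ptprv*, *Ptpn7* and *Gm10535* in kb from the start of *Ptprv*, with arrows along transcription and a dotted line for the further start of the RefSeq model of *Ptpn7*. Right, deposited values of *Ptpn7* against *Ptprv* in the 6 samples (Ly5.1 grey, *Ltbr*-/- red). The genotypes are separate on both axes.

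*Ptprc* and *Ptprv* lie on the same chromosome, with their starts 3.04 Mb apart, and the donors differ there by design. The length of chromosome around *Ptprc* at which the donors differ is not given in the sources used here, so the neighbours were examined. Of the 83 tested genes within 10 Mb of *Ptprc*, members left out, 10 passed the test (12.05%), 4 higher and 6 lower, where 14.8% of all tested genes passed, 10.6% higher and 4.18% lower. The count fell to 4 without *Ltbr*-/- replicate 3. Under quantile normalization it was 13, with 3 higher and 10 lower. Past a fold of 1.5 as well, which 2.78% of all tested genes were (2.72% higher and 0.061% lower), stood 2 of the 83. *Cd55*, the gene of the complement regulator decay-accelerating factor, was higher (log2 fold change 0.78, SE 0.09), and *Ctse*, which encodes the protease cathepsin E, was lower, at -2.57 (SE 0.11). They lie near each other, at -7.63 and -6.42 Mb from *Ptprc*, and a link to the segment that differs between the donors was not tested. None of the 5 tested genes nearest to *Ptprc* (*Nek7*, *2310009B15Rik*, *Dennd1b*, *Zbtb41* and *Aspm*) passed the test. The other called genes were *Eif2d*, *Ube2t* and *Rnpep*, which rose, and *Sox13*, *Chi3l1*, *Ppfia4*, *Rgs1* and *Ptpn7*, which fell. Of these 8, all but *Eif2d* lost the call when 1 sample was left out: *Ube2t* and *Ptpn7* without *Ltbr*-/- replicate 3, *Sox13* without Ly5.1 replicate 1, and *Rnpep*, *Chi3l1*, *Ppfia4* and *Rgs1* without any of several samples, *Ltbr*-/- replicate 3 among them.

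**Figure D4:**
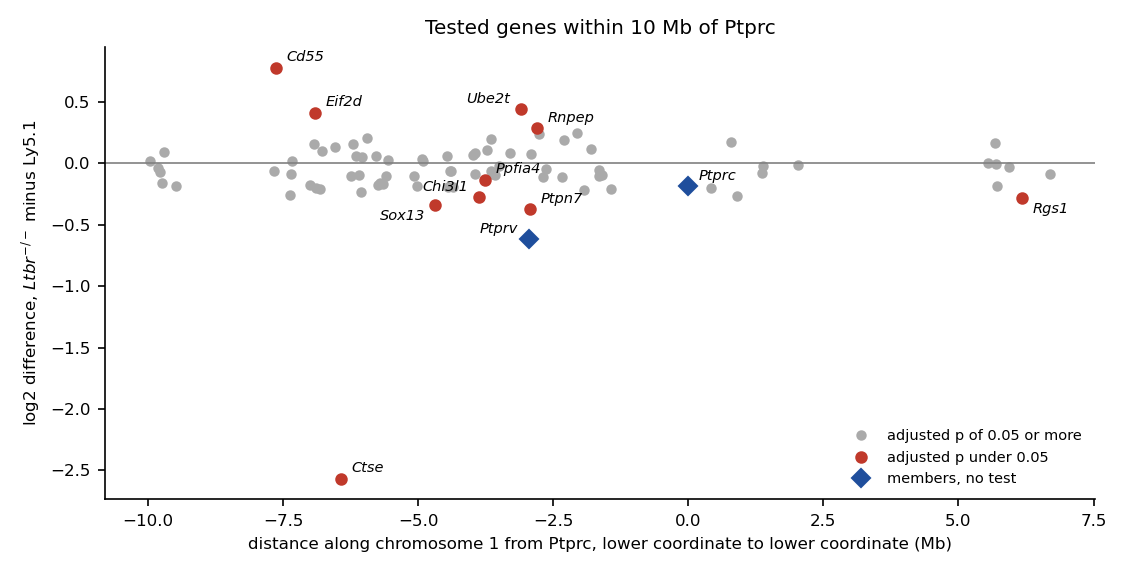
Log2 difference (*Ltbr*-/- minus Ly5.1) of the tested genes within 10 Mb of *Ptprc* against their distance from it in Mb, with genes at an adjusted p under 0.05 (limma) in red, the others grey, and the members *Ptprc* and *Ptprv* as blue diamonds without a test. Called genes in both directions lie among uncalled ones, and *Ctse* at -2.57 lies furthest from 0. *Ctse*, *Eif2d* and *Cd55* lie near each other, at -6.42, -6.91 and -7.63 Mb.

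As the other place where the donors differ by design, 156 tested genes within 10 Mb of *Ltbr* were examined in the same way. There 23 passed (14.74%, beside 14.8% of all tested genes), 18 higher and 5 lower, or 17 higher and 15 lower under quantile normalization. Past a fold of 1.5 as well stood 11 (7.05%, beside 2.78% of all tested genes), each of them higher in *Ltbr*-/- cells: *Alox5*, *Clec4d*, *Gapdh*, *Gm10224*, *Gm10420*, *Gm8213*, *Gm8430*, *Rpl32*, *Slc6a13*, *Tpi1* and *Tuba8*. Such calls were mostly higher over all tested genes too, at 2.72% higher and 0.061% lower. Whether the share in this window has to do with the locus was not tested. Of the 5 genes nearest to *Ltbr* (*Scnn1a*, *Tnfrsf1a*, *Plekhg6*, *Cd27* and *E130112N10Rik*), *Cd27* was lower in *Ltbr*-/- cells (log2 fold change -0.40, adjusted p = 0.0022, limma).

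The remaining receptor-type phosphatase genes were mostly below the filter. Of the 14, 11 were not tested, among them *Ptprb*, *Ptprd*, *Ptprg* and *Ptprm*. The 3 that were tested had means of 41.0 to 57.7 in both genotypes, and none passed at an adjusted p under 0.05 or at an unadjusted p under 0.05 (limma). Their log2 fold changes were 0.08 for *Ptprf*, -0.06 for *Ptpro* and -0.04 for *Ptpru*.

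Of the 17 genes of classical cytosolic phosphatases 15 were tested and 2 passed (13.3%, beside 14.8% of all tested genes), one in each direction. *Ptpn7* fell, as above. *Ptpn18*, a PEST-type phosphatase, rose: it had values of 1744, 1920 and 1916 in *Ltbr*-/- and 1449, 1384 and 1548 in Ly5.1 samples, which did not overlap (log2 fold change 0.35, SE 0.08, adjusted p = 0.0028, limma). *Ptpn6*, which encodes SHP-1, the inhibitory phosphatase of blood cells, and lies 0.586 Mb from *Ltbr*, had values of 4046, 4168 and 4156 against 4663, 4555 and 4529. The genotypes did not overlap, yet its log2 fold change of -0.15 (SE 0.07) did not pass the test (adjusted p = 0.161, limma). It passed under quantile normalization, at -0.29 (adjusted p = 0.0026, limma), and with no filter (adjusted p = 0.0433). *Ptpn6* is mentioned because of these values.

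Src-family kinases, on which CD45 and the products of *Ptprj*, *Ptpra* and *Ptpre* act, were listed with their inhibitory kinases and adaptors. Of the 15 genes 13 were tested and 2 passed (15.4%, beside 14.8% of all tested genes), both lower in *Ltbr*-/- cells, as were 4.18% of all tested genes. *Matk*, a kinase that inhibits Src-family kinases as CSK does, fell by 0.26 on the log2 scale (SE 0.09, adjusted p = 0.0377, limma), a call that was lost when *Ltbr*-/- replicate 1 or 3 or any of the 3 Ly5.1 replicates was left out, at adjusted p values of 0.106, 0.17, 0.097, 0.0588 and 0.0656. *Csk*, *Lyn*, *Fyn* and *Lck* passed no test. The median over the 13 was -0.06, beside -0.011 over all tested genes.

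Of 20 genes of B and T cell receptor signalling, a pathway that depends on CD45 in lymphocytes, 15 were tested and 2 passed (13.3%, beside 14.8% of all tested genes), both higher, as were 10.6% of all tested genes. *Cd79a*, which encodes the signalling chain of the B cell receptor, had values of 298, 274 and 304 in *Ltbr*-/- and 194, 212 and 168 in Ly5.1 samples (log2 fold change 0.62, SE 0.10, adjusted p = 6.87e-06, limma). *Lat*, an adaptor of T cells, mast cells and platelets, rose by 0.26 (SE 0.09, adjusted p = 0.0422, limma), and this call was lost when any sample but *Ltbr*-/- replicate 2 was left out, at adjusted p values of 0.0555 to 0.257. Under quantile normalization the list gave 1 higher (*Cd79a*) and 3 lower genes (*Plcg1*, *Plcg2* and *Syk*). *Cd3e* was at a value of 1 or under in all samples.

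**Figure D5:**
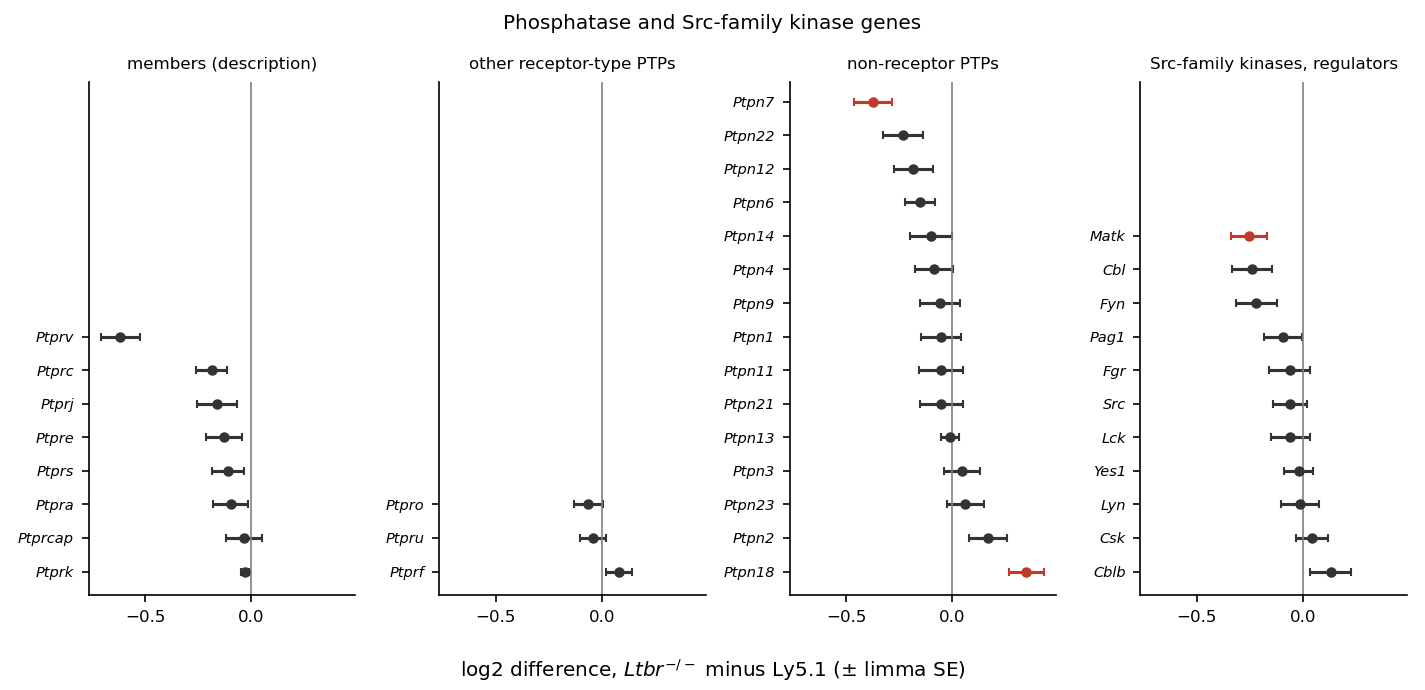
Log2 difference (*Ltbr*-/- minus Ly5.1) with the limma standard error for the members, the other tested receptor-type phosphatases, the non-receptor phosphatases and the Src-family kinases with their regulators (11 of the 13 tested, with *Ptpn22* shown among the phosphatases). The standard error of *Ptprk*, 0.018, is from the fit with no filter on low values and is not comparable with the others. Genes other than members at an adjusted p under 0.05 are red: *Ptpn7* and *Matk* to the left of 0 and *Ptpn18* to the right.

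Because several members are expressed at different levels in different blood cells, the marker lists are given beside their values. All 7 granulocyte markers (*Ly6g*, *S100a8*, *S100a9*, *Elane*, *Mpo*, *Camp* and *Ngp*) were lower in *Ltbr*-/- cells, with a summed value of 36136 to 36757 against 47943 to 51825 in Ly5.1 samples. Of 5 mast cell markers 2 were higher (*Cma1* and *Cpa3*), whereas *Fcer1a*, *Ms4a2* and *Mcpt8* did not pass, with log2 differences of -0.10, -0.04 and -0.22. The sum was 7064 to 7455 against 3396 to 4001, most of it *Cma1*, with means of 5470 in *Ltbr*-/- and 2195 in Ly5.1 samples. Among all tested genes 10.6% were called higher and 4.18% lower. Of the markers against which cells are sorted or which mark progenitors, *Flt3* and *Cd34* were lower. Of 5 erythroid markers 1 was higher (*Hba-a1*), of the 5 monocyte and macrophage markers tested 2 were higher (*Emr1* and *Cd68*), and of 4 megakaryocyte markers *Itga2b* was higher and *Pf4* lower. Of 7 B cell markers 2 were tested and 1 was higher (*Cd79a*), with *Cd79b* at 301, 357 and 300 in *Ltbr*-/- and 290, 283 and 268 in Ly5.1 samples (adjusted p = 0.216, limma). Their sum was 622 to 653 against 459 to 518, and the defining *Ms4a1*, *Pax5* and *Ebf1* had values of 2.19 or lower in all samples. The 6 T cell markers summed to 43.8 to 46.9. Their part in the members' values was not tested.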

How the data were processed

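RNA of FACS-purified LT/ST-HSCs was converted to libraries with the TruSeq Stranded mRNA kit and sequenced as 76-base single reads. Read assembly by the authors was done in SeqMan NGen and quantification in ArrayStar, with regularized log values from Bioconductor. The deposited signal is that value on a linear scale, with 26595 rows per sample and no read counts. The submitters' processing notes name DESeq2, GRCm38 and mm10. Neither the annotation nor the strand setting is given in the sources used here.

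Values were taken to log2. For repeated names the row with the highest mean was kept. The upper 50% of the 26216 names by mean were tested with limma (v.3.58.1, R v.4.3.3; lmFit and eBayes with a trend) on all 6 samples, with no covariate and Benjamini-Hochberg adjustment over the 13108 tested names. The code was tested on simulated data. Genes were called at an adjusted p under 0.05, and also with a fold of at least 1.5. Positions, transcripts and sequences are from GENCODE M21 and RefSeq on GRCm38, and distances for windows run between lower coordinates in the RefSeq table, in which 22316 names matched by symbol and 2222 by synonym. Standard errors of members are from the same fit, except for *Ptprk*, which was not tested. Its standard error is from the fit with no filter.

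Named were all members, called genes of each list, window genes called with a fold of 1.5 or among the 5 nearest, and the 3 genes most correlated with *Ptprc* and *Ptprv*. The further called genes in the *Ptprc* window, *Ptpn6* and *Coro1b* were named after their values were seen. Some genes of the lists are not reported here. Members and lists were chosen with earlier results of these data known. Alternatives were quantile normalization, median centring, no filter, no trend, a replicate block, summed repeated names, leaving out each sample, 5 Mb windows and the median transcript length.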

Additional observations from a re-analysis of the deposited data

How the results depend on the processing

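With no filter on low values, which adds names near the lowest values to the variance trend, 675 of 26216 names were called (1936 of 13108 as reported). It gave 1 non-receptor phosphatase (*Ptpn6*, with *Ptpn7* and *Ptpn18* lost), 0 Src-family kinase and regulator genes (4 at an unadjusted p under 0.05, limma), 0 B and T cell receptor signalling genes (5 at an unadjusted p under 0.05), 3 genes around *Ptprc* and 13 around *Ltbr*. Under it the adjusted p of *Ptpn7* was 0.172 and that of *Cd79a* 0.0583. Quantile normalization gave 4 receptor signalling genes, and windows of 5 Mb held 42 tested genes around *Ptprc*, of which 6 (14.3%) were called. Median transcript lengths moved 6 ranks of the members. Leaving out each sample in turn gave 1253 to 1999 genes in all (1253 without *Ltbr*-/- replicate 3), 1 to 3 non-receptor phosphatases, 1 to 2 Src-family kinase and regulator genes, 1 to 3 receptor signalling genes, 4 to 11 genes around *Ptprc*, 18 to 26 around *Ltbr*, and a median absolute log2 difference of the members of 0.0906 to 0.165. The causes of these moves were not tested. No called gene of the lists and windows changed direction under the alternatives run, and nor did *Ltbr*. The direction of the remaining called genes was not followed. Among the members, *Ptprcap*, which was not called, did so once. The other receptor-type phosphatases stayed at 0 called under each alternative, with at most 1 of them at an unadjusted p under 0.05.

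The genotypes shared hosts, but the labels do not say whether same-numbered samples of the genotypes came from the same ones. Deviations of same-numbered samples correlated at 0.031, -0.005 and 0.090, and those of differently numbered samples at -0.074 to 0.045. With 3 samples per genotype these values cannot tell whether the samples are paired. With the replicate block 1936 genes were called in all, 11 around *Ptprc* and 27 around *Ltbr*, and the counts of the gene lists were 2, 2, 2 and 0, as without it. The files hold no read counts per gene, so the members' differences were not set against counting error.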
